A study of Mus musculus with 4 samples.

Results

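The inhibitory receptors examined here are 10 genes of the B cell surface: Fcgr2b, Cd22, Siglecg, Pirb, Lilrb4, Cd72, Fcrl1, Fcrl5, Lair1 and Pecam1. They were found by the gene name that the array's scanner files give each probe, which matched 18 of 39429 probes, 1 probe for 3 genes, 2 for 6 genes and 3 for Pirb, out of 29924 gene names on the array. The cells were MACS-purified spleen B cells of male mice, taken from C57BL/6 animals (WT) or from animals lacking Ackr4 (Ackr4ko), an atypical receptor that binds and removes the chemokines CCL19, CCL21 and CCL25. All cultures, of either genotype, were activated for 3 days with anti-IgM at 10 µg/mL, which engages the B cell receptor, and an antibody to CD40 at 10 µg/mL. The Ackr4ko donors were 73 and 71 days old and the WT donors 77 and 74 days, in 2 independent experiments with different donors, so that each experiment gave 1 array per genotype. No unstimulated cells were measured in the arrays used here, and the labels do not say how the Ackr4 allele was made or whether a sample was 1 animal.

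Most of these receptors carry an immunoreceptor tyrosine-based inhibitory motif (ITIM) in their cytoplasmic tail. When such a receptor is drawn to an engaged B cell receptor, the kinase Lyn phosphorylates the motif, and the phosphatases SHP-1 (Ptpn6), SHP-2 (Ptpn11) or SHIP-1 (Inpp5d) bind it and dampen calcium and kinase signals. What draws each receptor in differs: IgG-containing immune complexes for Fcgr2b, sialic acids for Cd22 and Siglecg, MHC class I for Pirb, the semaphorin CD100 for Cd72, collagen for Lair1 and another PECAM-1 molecule for Pecam1. Fcrl1 is the odd member, since its tail carries activating-type motifs and it is known for promoting B cell receptor signals.

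The 4 arrays were Agilent 1-colour arrays with 4 spots of each probe, and their number limits the precision of every comparison. Values are log2 of the scanner's background-corrected signal with the 75th percentiles of the arrays set equal, a scale on which 1 unit is a 2-fold step and on which levels of different probes cannot be ranked, because probes differ in how well they bind. In the authors' deposited value table, the labels and the scanner files disagree: in each experiment the column labelled Ackr4ko followed the WT scanner array most closely and the WT column the Ackr4ko array (correlation over 16207 probes 0.9989 to 1, against 0.9786 to 0.9858 with the array of its own label). The scanner files' labels are kept below, so "Ackr4ko" and "WT" mean the arrays labelled so, and every direction would turn round if the table's labels are the right ones. The targeted gene checks neither, since its 2 probes were above background on 0 of 4 arrays. The WT array of experiment 2 differed from the rest in quality, since the scanner software marked 6.24% of spots there as outliers (no more than 2.12% elsewhere) and 42.2% of probes were above background (elsewhere 49.5% to 54.9%). The 9 B cell marker genes on the array were above background on all 4 arrays. So were the T cell genes Cd3d, Cd3e, Cd3g and Cd4 and the NK cell genes Nkg7 and Prf1. The dendritic cell genes Flt3, Zbtb46 and Siglech and the granulocyte genes Ly6g, Elane and Csf3r were as well. The T cell genes Cd8a, Cd8b1 and Trat1 and the NK cell genes Ncr1 and Klrb1c were above background on no array. The 7 platelet genes looked for were above background on none, nor were the macrophage genes Lyz2, Cd14, Fcgr1, Ccr2, Vcam1 and Mertk or the endothelial genes Tek, Tie1, Emcn, Vwf and Cldn5. In the same lists the macrophage genes Adgre1, Itgam, Cd68, Csf1r and Mpeg1 and the endothelial gene Kdr were above background on all 4 arrays, and the endothelial genes Cdh5 and Madcam1 on 2. The Itgam probe shares a run of 20 bases with a probe of another gene, and whether other RNA adds to its signal was not tested.

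The receptors were found expressed almost throughout, and the genotypes were not told apart on any of them. All 10 genes had at least 1 probe that could be tested, meaning a probe with 50% or more of the spots well above background on 2 or more arrays, and 9 of the 10 had a probe above background on every array. Of the 18 probes, 14 were tested and 12 were above background on all arrays. The other 4 were Lilrb4 A_51_P241457 and Pirb A_55_P2053404, each above background on the WT array of experiment 1 alone, and Fcrl5 A_55_P2050732 and Lair1 A_52_P219230, above background on no array. In the limma fit over all 20862 tested probes, 0 of the 14 receptor probes had a Benjamini-Hochberg adjusted p under 0.05 without a block, against 0.23% of all tested probes, and 1 had an unadjusted p under 0.05, against 5.19%. A fit that takes the experiment as a block also called 0 of 14, against 2.79% of all probes. In this block fit 3 of 14 had an unadjusted p under 0.05, against 2032 of all 20862 tested probes. The 3 were Pecam1 (0.004), Siglecg A_55_P2034875 (0.016) and Pirb A_55_P2097279 (0.035). After quantile normalization the block fit called 0 of 14 against 0.0144%. Between 2 samples and 2 others an exact permutation test cannot go below a two-sided p of 0.333, so only the fit across all probes is given.

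**Figure D1:**
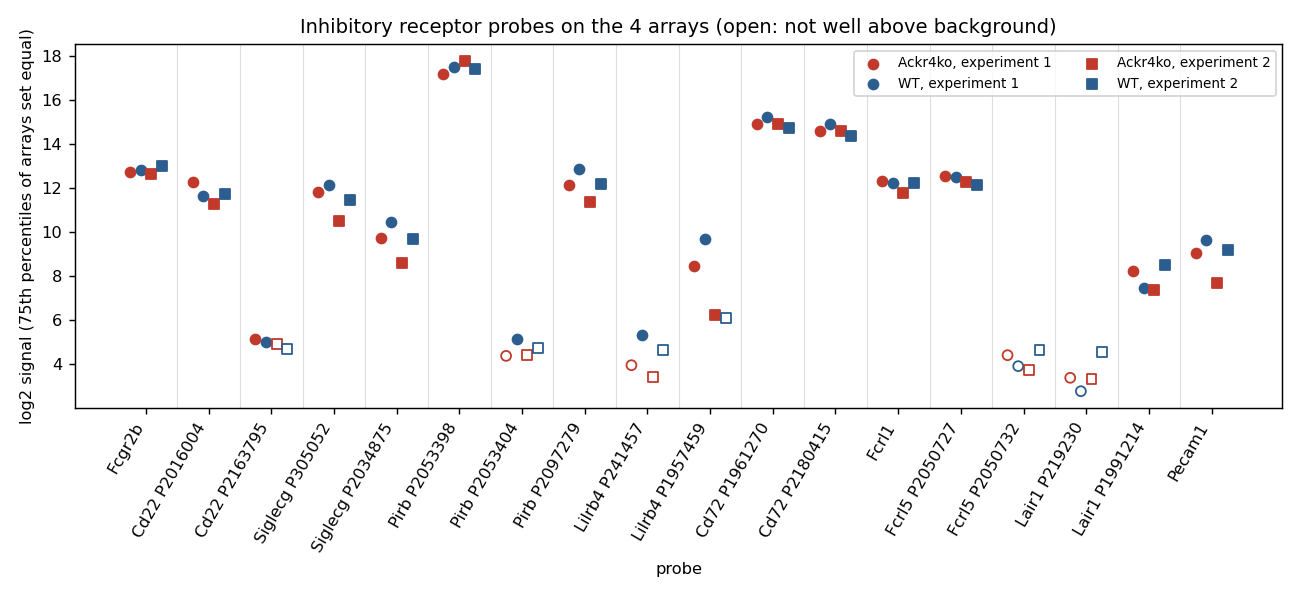
The plot shows the log2 signal (vertical axis, 75th percentiles of the arrays set equal) of all 18 probes of the 10 receptors, with 1 point per array: circles are experiment 1, squares experiment 2, red Ackr4ko and blue WT, and open points are not well above background. Red and blue points interleave for most probes, while both red points lie below both blue ones for Fcgr2b, Pirb A_55_P2097279 and Pecam1 among the tested probes. Probe names are shortened to their last part.

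A few probe sequences show what the values below rest on. They are given 5′ to 3′ as the scanner files list them, for some of the receptor probes, on the mouse build mm9. The Pecam1 probe (chr11:106540864-106540923, minus strand) lies on 1 contiguous stretch, and so does Siglecg A_55_P2034875 (chr7:50667115-50667174, plus strand). Siglecg A_51_P305052 (chr7:50668051-50673194, plus strand) and Lilrb4 A_51_P241457 (chr10:51212976-51213891, plus strand) are 60 bases long, but span 5144 and 916 bases of genome, so each crosses a splice junction and reads spliced RNA.
Pecam1 A_55_P2087087: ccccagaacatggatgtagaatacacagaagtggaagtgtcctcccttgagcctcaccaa
Siglecg A_51_P305052: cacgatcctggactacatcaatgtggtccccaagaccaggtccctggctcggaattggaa
Siglecg A_55_P2034875: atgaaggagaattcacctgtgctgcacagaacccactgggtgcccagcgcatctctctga
Lilrb4 A_51_P241457: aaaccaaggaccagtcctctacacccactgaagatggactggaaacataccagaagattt

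The 3 Pirb probes differ in kind, and 30 bases of each show how. In A_55_P2053398 (chr7:3663046-3663105, minus strand; bases 24 to 53 shown) the capitals mark the run of 20 bases that the most other probes of the array hold, 8 of them. In A_55_P2097279 (chr7:3664137-3664196, minus strand; bases 31 to 60) they mark AATAAA, the letters of the usual polyadenylation signal, which 12.6% of all probes and 1 of the 18 receptor probes hold. In A_55_P2053404 (chr7:3668688-3668742, minus strand; bases 14 to 43) they mark GTAAGT, the letters of a common splice donor, held by 0.893% of all probes. Each motif was searched on the strand given by the files, and a match says only that the letters are there.
Pirb A_55_P2053398: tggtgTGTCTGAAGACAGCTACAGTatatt
Pirb A_55_P2097279: agtttggaAATAAAgctagagatttctcaa
Pirb A_55_P2053404: aaatactcatctcagGTAAGTccccactat

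Fcgr2b, the low-affinity IgG receptor through which immune complexes restrain B cells, differed little between the arrays. Its probe A_51_P130095 (chr1:172890988-172891047) read 12.72 and 12.65 on the Ackr4ko arrays and 12.83 and 12.98 on the WT arrays of experiments 1 and 2. Both Ackr4ko arrays were below both WT arrays, as they were for 7.68% of all tested probes, but the gap was small. The difference was -0.10 in experiment 1 and -0.33 in experiment 2, with a mean of -0.22 and a 95% interval of -1.02 to 0.59 (limma adjusted p 1.00).

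Cd22 and Siglecg are the sialic acid-binding receptors (Siglecs) of B cells, and both lie on chromosome 7. Cd22, which binds sialic acids on the cell's own surface proteins and recruits SHP-1, was measured by A_55_P2016004 (chr7:31651249-31651308) at 12.28 and 11.26 on the Ackr4ko arrays and 11.65 and 11.73 on the WT arrays. This probe shares a run of 20 bases with 2 other probes of the array, and whether other RNA adds to its signal was not tested. The WT arrays lay between the 2 Ackr4ko arrays, which stood apart by -1.02 (experiment 2 minus experiment 1). The genotype difference was 0.64 in experiment 1 and -0.47 in experiment 2, for a mean of 0.08 (95% interval -0.81 to 0.98). Its second probe, A_55_P2163795, is assigned to a predicted transcript and was dim, above background in experiment 1 alone, at 5.16 on the Ackr4ko and 5.03 on the WT array. Its mean difference over both experiments was 0.18.

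Siglecg, whose product restrains calcium signals most in B-1 cells, read lower on the Ackr4ko array of each experiment with both probes. The junction-crossing probe A_51_P305052 read 11.83 and 10.49 on the Ackr4ko and 12.15 and 11.46 on the WT arrays, a difference of -0.32 in experiment 1 and -0.97 in experiment 2. The upstream probe A_55_P2034875 read 9.75 and 8.59 on the Ackr4ko and 10.44 and 9.68 on the WT arrays, which is -0.69 and -1.09. The groups overlapped for both, since the Ackr4ko array of experiment 1 was above the WT array of experiment 2. The mean differences were -0.64 (95% interval -1.64 to 0.35, limma adjusted p 1.00) and -0.89 (-1.86 to 0.08, adjusted p 1.00). With the experiment as a block the adjusted p-values were 0.626 and 0.271. Without the Ackr4ko array of experiment 2, the difference was 0.02 for A_51_P305052 and -0.31 for A_55_P2034875, whose range over leaving out 1 array was -1.47 to -0.31. Both probes were lower in experiment 2 than in experiment 1 in each genotype, A_51_P305052 by -1.34 in Ackr4ko and -0.69 in WT cells.

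Pirb, paired immunoglobulin-like receptor B, binds MHC class I on the same or other cells and recruits SHP-1. Its 3 probes gave 3 different readings. A_55_P2097279 read 12.14 and 11.35 on the Ackr4ko arrays and 12.87 and 12.17 on the WT arrays. Both Ackr4ko arrays were below both WT arrays, with differences of -0.73 in experiment 1 and -0.82 in experiment 2. The mean difference was -0.78 (95% interval -1.68 to 0.12), with a limma adjusted p of 1.00, and of 0.425 once the experiment was a block. Leaving out 1 array at a time gave -1.17 to -0.38, with -0.38 without the Ackr4ko array of experiment 2 and -0.43 without the WT array of experiment 1.

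The probe A_55_P2053398 read 17.18 and 17.78 on the Ackr4ko and 17.51 and 17.38 on the WT arrays, so the difference was -0.33 in experiment 1 and 0.40 in experiment 2. Its letters shown above recur widely: 15 probes for other genes or unnamed transcripts on 9 chromosomes share a run of at least 20 bases with it, and 70 of 32851 mouse promoter windows of 300 bases (RefSeq, GRCm38.p6; 0.213%) hold such a run on either strand. Of the other 17 receptor probes, none shared such a run with more than 2 probes. All 15 probes were above background on every array, and 14 of the 15 had the same signs as this Pirb probe, negative in experiment 1 and positive in experiment 2. Their median differences were -0.31 and 0.40, against -0.33 and 0.40 here. All tested probes had medians of -0.06 and 0.31, and whether the shared run accounts for the likeness was not tested. A_55_P2097279, which shares a run of 20 bases with 0 other probes, is the one described as Pirb below, while counts over the 14 tested probes hold both.

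**Figure D2:**
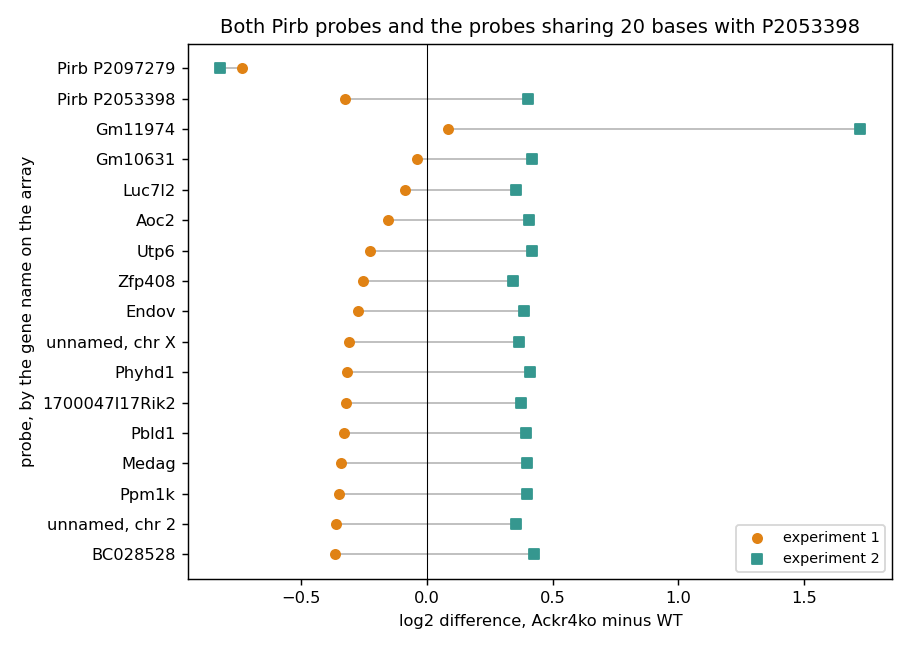
The plot gives the log2 difference, Ackr4ko minus WT, in experiment 1 (orange circles) and experiment 2 (green squares) for Pirb A_55_P2097279, for Pirb A_55_P2053398 and for the 15 probes sharing a run of 20 bases with the latter, named as on the array. Pirb A_55_P2053398 at -0.33 and 0.40 lies among the sharing probes (medians -0.31 and 0.40), and Pirb A_55_P2097279 lies at -0.73 and -0.82.

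The third Pirb probe, A_55_P2053404, belongs to a transcript of its own and was above background on the WT array of experiment 1 only, so the genotypes could not be tested and no fold is given.

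Genes of the same family were read as well. Pirb has activating partners, the paired receptors A (Pira genes), which signal through the adaptor Fcer1g. How far each probe also binds RNA of its relatives was not tested. Of the Pira and Lilra6 probes, 8 probes of 5 genes (Pira2, Pira6, Pira7, Pira11 and Lilra6) were above background on all 4 arrays, a set completed after its values were seen. All 8 were lower on both Ackr4ko arrays than on both WT arrays, as were 7.68% of all tested probes. Their differences within experiments were -0.41 to -1.14, with medians of -0.77 in experiment 1 and -0.83 in experiment 2. Limma called 0 of the 8 at an adjusted p under 0.05 (smallest 0.705), against 0.23% of all tested probes. An unadjusted limma p under 0.05 was found for 3, against 5.19%. With the experiment as a block 0 were called (smallest adjusted p 0.145), against 2.79%. Of the 8, 3 share a run of 20 bases with another of them, so they are not independent measurements.

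**Figure D3:**
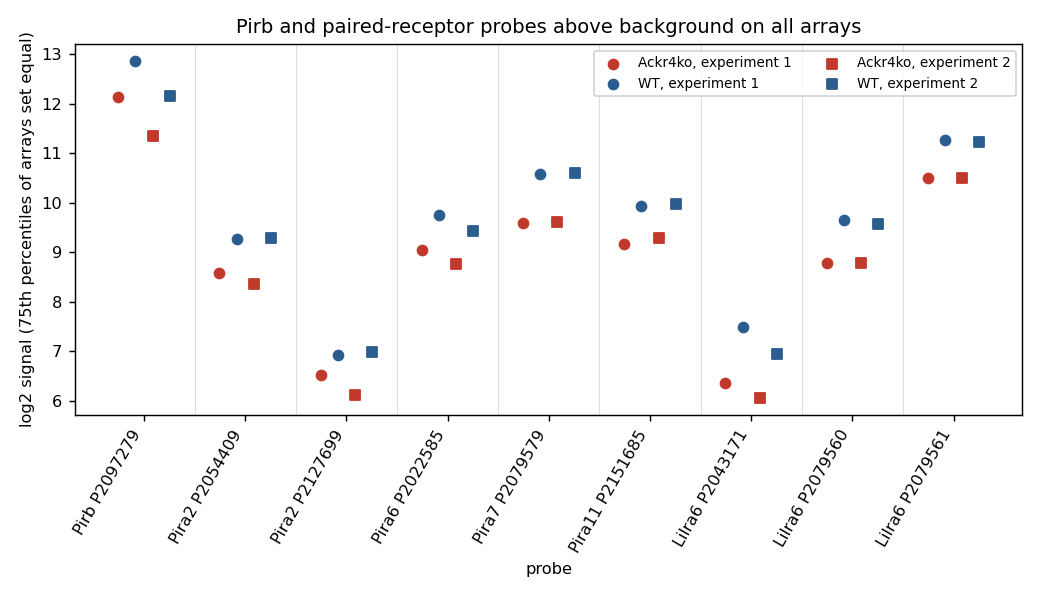
The plot shows the log2 signal of Pirb A_55_P2097279 and of the 8 probes for Pira and Lilra6 genes that were above background on all arrays, with 1 point per array (red Ackr4ko, blue WT, circles experiment 1, squares experiment 2). In each column both red points lie below both blue points.

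Macrophages express Pirb, Lilrb4 and Lair1 as well, and in RNA of a whole culture a smaller share of such cells cannot be told apart from less RNA per cell. Of 12 macrophage and monocyte genes on the array, 5 to 6 were above background on the Ackr4ko and 5 on the WT arrays. Their summed signal was 29510 to 38865 units on the Ackr4ko and 48049 to 48969 on the WT arrays, without overlap, most of it from Mpeg1, a pore-forming protein gene that B cells also express. Mpeg1 differed by -0.74 and Cd68, a lysosomal macrophage protein, by 0.55 (limma adjusted p 1.00 for each). Without Mpeg1 the sums were 12619 and 12971 on the Ackr4ko and 12779 and 14598 on the WT arrays. The part of these cells in the Pirb and Lilrb4 readings was not tested.

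Lilrb4, known in mouse as gp49B, a receptor best studied in mast cells and myeloid cells and also found on activated B cells, varied more between experiments than between genotypes. Its probe A_55_P1957459 (chr10:51216160-51216219) read 8.48 and 9.71 on the Ackr4ko and WT arrays of experiment 1, and 6.25 and 6.10 on those of experiment 2, where the WT array was no longer above background. Experiment 2 was thus lower by -2.23 in Ackr4ko and -3.60 in WT cells. At least 2-fold lower in experiment 2 in both genotypes were 1.39% of all tested probes and, of the receptors, this probe alone. The genotype difference was -1.23 in experiment 1 and 0.15 in experiment 2, and the mean of -0.54 had the widest interval of the 14 tested probes (-2.40 to 1.32). The probe A_51_P241457, whose sequence is given above, was above background on the WT array of experiment 1 only (5.35), so no fold is given. The array files assign both probes also to Gp49a, the neighbouring activating relative, so neither can be credited to Lilrb4 alone.

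Cd72, a C-type lectin that recruits SHP-1, read nearly alike on its 2 probes, which overlap in the genome (chr4:43460596-43460655 and chr4:43460607-43460666) and are not independent. A_55_P1961270 read 14.90 and 14.92 on the Ackr4ko arrays, and 15.24 and 14.74 on the WT arrays, so the 2 Ackr4ko arrays lay between the WT ones. The difference was -0.34 in experiment 1 and 0.18 in experiment 2, with a mean of -0.08 (95% interval -0.90 to 0.75). A_55_P2180415 gave -0.36 and 0.20.

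Fcrl1 and Fcrl5, Fc receptor-like proteins of B cells encoded near each other on chromosome 3, gave small differences. Fcrl1 (A_51_P349213, chr3:87195973-87196032) read 12.32 and 11.79 on the Ackr4ko and 12.20 on each WT array. Its Ackr4ko arrays lay on either side of the WT arrays, with differences of 0.11 and -0.42 and a mean of -0.15 (95% interval -0.98 to 0.67). Fcrl5, whose tail carries both inhibitory and activating motifs and which is known from marginal zone and B-1 cells, was read by A_55_P2050727 at 12.54 and 12.26 on the Ackr4ko and 12.50 and 12.12 on the WT arrays. The differences of 0.04 and 0.14 (mean 0.09, 95% interval -0.73 to 0.91) were smaller than the step between the experiments, -0.28 in Ackr4ko and -0.38 in WT cells. The other Fcrl5 probe, A_55_P2050732, is listed for a different transcript at chr3:87304541-87304600 and was not above background on any array. Bases 31 to 60 of both show that they are unrelated stretches.
Fcrl5 A_55_P2050727: catttgccattaaacatttgggctttgatc
Fcrl5 A_55_P2050732: ccagacgttggtacaaaagagtgggtacgg

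Lair1, the collagen receptor, lies close to Pirb on chromosome 7 and went in opposite directions in the 2 experiments. A_55_P1991214 (chr7:3959675-3959734) read 8.22 and 7.39 on the Ackr4ko and 7.47 and 8.51 on the WT arrays. The array of experiment 1 was the higher of the Ackr4ko pair and the lower of the WT pair, so the groups overlapped. The differences were 0.75 and -1.12, and the mean was -0.19 (95% interval -1.15 to 0.77).

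Among the 14 tested probes, that of Pecam1 (CD31) had the largest mean difference and, in the fit without a block, the only interval that left out 0. Its product is an adhesion receptor that binds itself across cells and recruits SHP-2. The probe A_55_P2087087 read 9.05 and 7.69 on the Ackr4ko arrays and 9.64 and 9.21 on the WT arrays. Both Ackr4ko arrays were below both WT arrays, with a gap of -0.59 in experiment 1 and -1.51 in experiment 2. The mean difference was -1.05 with a standard error of 0.458 (95% interval -2.03 to -0.07), an unadjusted p of 0.037 and an adjusted p of 0.886 in the limma fit. Taking the experiment as a block, the unadjusted p was 0.004 and the adjusted p 0.115, so it passed in neither fit. Leaving out 1 array at a time gave -1.73 to -0.37, the smallest without the Ackr4ko array of experiment 2. Platelets and endothelium also express Pecam1. Of 7 platelet genes 0 were above background on any array. Of 12 endothelial and stromal genes, 1 to 3 were above background on each genotype's arrays, with a summed signal of 5596 to 7049 on the Ackr4ko and 6563 to 6929 on the WT arrays, most of it from Kdr, which read 12.41 and 12.75 on the Ackr4ko and 12.72 and 12.61 on the WT arrays. The part of such cells in the Pecam1 values was not tested.

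**Figure D4:**
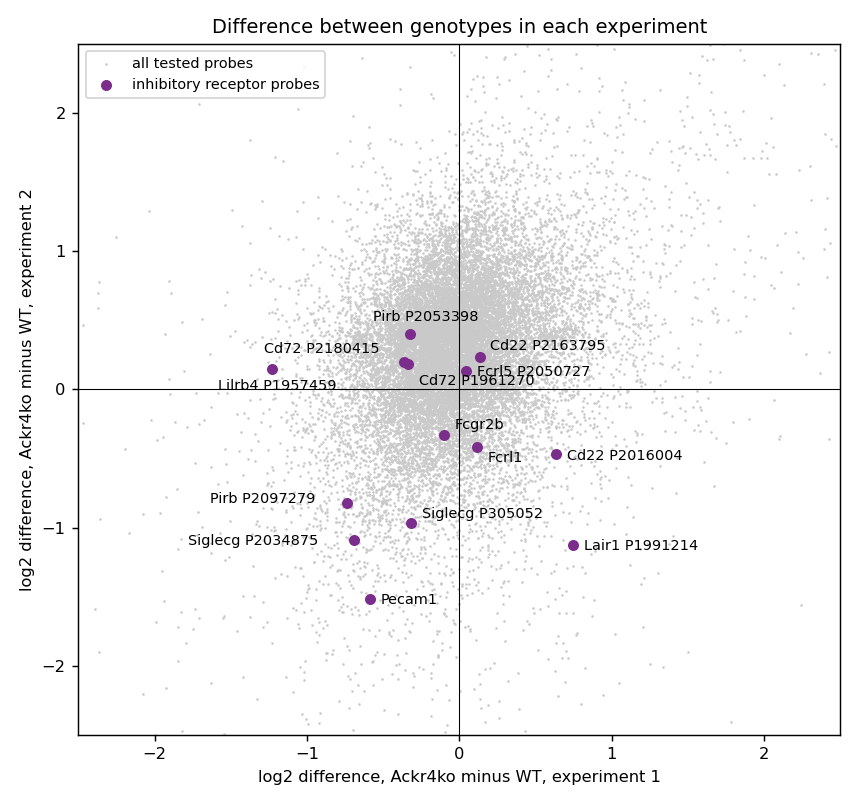
Each point of the plot is a tested probe, with its log2 difference, Ackr4ko minus WT, in experiment 1 (horizontal) and in experiment 2 (vertical); grey points are all tested probes, of which 189 lie outside the axes, and purple points the 14 receptor probes. Pecam1, Pirb A_55_P2097279, both Siglecg probes and Fcgr2b lie in the lower left, and Lair1 and Cd22 A_55_P2016004 in the lower right.

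Over the whole list, 5 of the 14 tested probes were lower on Ackr4ko in both experiments (18.6% of all tested probes were), 2 were higher in both (33.7%) and 7 had opposite signs (47.6%). The 5 came from 4 genes, Fcgr2b, Siglecg, Pirb and Pecam1. Without overlap between the groups, 3 were lower (7.68% of all probes) and 0 higher (21.0%). The median difference of the 14 probes was -0.17, with -0.32 in experiment 1 and -0.37 in experiment 2, beside 0.12, -0.06 and 0.31 for all tested probes. Without Pirb A_55_P2053398 the medians of the other 13 probes were -0.19, -0.32 and -0.42, and 6 of them had opposite signs. Lower in experiment 2 than in experiment 1 in both genotypes were 7 of the 14 probes, and 35.8% of all. The list was not tested as a set, and with 14 probes of 10 genes these counts are a description.

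**Figure D5:**
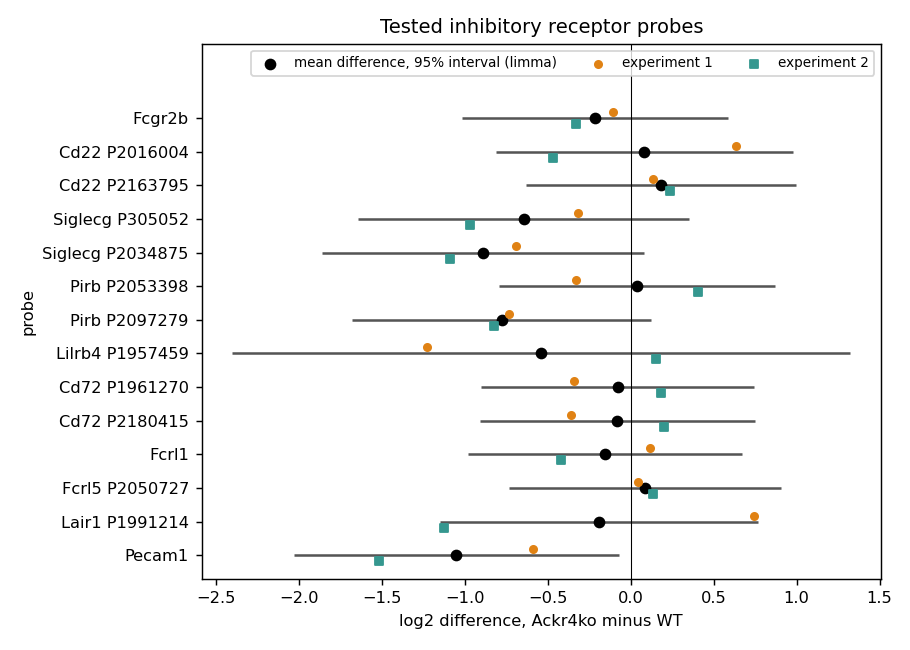
The plot gives, for each of the 14 tested receptor probes, the mean log2 difference between the genotypes, Ackr4ko minus WT (black), with its 95% interval from limma, and the difference in experiment 1 (orange circles) and experiment 2 (green squares). All intervals, from the fit without a block, include 0 except that of Pecam1 (-2.03 to -0.07), whose adjusted p was 0.886. The interval of Lilrb4 is the widest.

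Inhibitory receptors outside the 10 included larger differences than any tested probe of the 10. Of 14 such genes 12 were tested, each by its brightest tested probe, with 3 lower and 3 higher on Ackr4ko in both experiments, beside 18.1% and 34.4% of all 15982 genes read that way. Limma without a block called 0 (3 at an unadjusted p under 0.05; 0.232% of all genes called), and with the block 2 (2.82% of all genes). Siglecf, a Siglec best known from eosinophils, read 7.20 and 8.62 on the Ackr4ko and 9.59 and 10.21 on the WT arrays, without overlap. Its difference was -1.99, with an adjusted p of 0.134 (9e-06 with the experiment as a block, 0.161 with the block after quantile normalization), and -2.70 to -1.28 when 1 array was left out. Tigit, an inhibitory receptor for nectin-family ligands best known from T and NK cells, read 5.52 and 7.03 against 4.43 and 4.81, and was above background on the Ackr4ko arrays only. Both WT readings were below background, and the difference of 1.66 became 0.51 with normexp background correction, so no fold is given. The limma adjusted p was 0.312 (0.000613 with the block, 0.340 with the block after quantile normalization). Tigit passed the filter through the Ackr4ko arrays alone, so these p-values rest on WT readings below background and support no call.

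The molecules that act below the receptors were not told apart between genotypes either. Of 14 genes for ITIM effectors and related phosphatases, kinases, adaptors and ubiquitin ligases, 13 were tested. In both experiments 5 were lower and 3 higher on Ackr4ko (18.1% and 34.4% of all genes). Limma called 0, against 0.232% of all genes, with 0 at an unadjusted p under 0.05. The smallest p belonged to Dok1, an adaptor that restrains Ras signals (difference 0.63), and Cblb, a ubiquitin ligase that damps receptor signals (0.50), each with a limma adjusted p of 1.00. Of 17 genes for ligands and for enzymes that make or trim sialic acids, 13 were tested and 0 called (0 at an unadjusted p under 0.05), with 2 lower and 2 higher in both experiments, set against the same shares. Casd1, which acetylates sialic acids, differed by -0.54 and Cd38, a ligand of Pecam1, by -0.40, each with a limma adjusted p of 1.00.

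Among 24 activating and related receptors 13 were tested, 5 lower and 2 higher in both experiments (18.1% and 34.4% of all genes), and 0 were called (0.232% of all genes; 1 at an unadjusted p under 0.05). Tyrobp (DAP12), an adaptor for activating receptors, read 10.13 and 13.69 on the Ackr4ko and 8.83 and 10.81 on the WT arrays. The Ackr4ko array was higher within each experiment, although the groups overlapped. The difference was 2.09 with a limma adjusted p of 0.787 (3e-06 with the experiment as a block, 0.250 with the block after quantile normalization). It was 0.31 without the Ackr4ko array of experiment 2, 3.87 without that of experiment 1, and 1.10 without the WT array of experiment 1. On that Ackr4ko array of experiment 2 the NK cell genes summed to 6188, against 2485 to 3096 on the others. Nkg7 and Prf1 gave most of these NK sums. Dendritic cell genes summed to 8750 to 11189 on the Ackr4ko and 4636 to 4750 on the WT arrays, most of it from the single gene Flt3. The part of either cell type in the Tyrobp value was not tested. Pira2, described with Pirb above, differed by -0.79 (adjusted p 0.979).

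Receptors of this kind also differ between B cell subsets and states. Of 12 marginal zone and B-1 genes 11 were tested, 6 lower and 1 higher on Ackr4ko in both experiments (18.1% and 34.4% of all genes), with a summed signal of 33189 to 34563 on the Ackr4ko and 37156 to 38205 on the WT arrays. Cd5, a B-1 marker and itself an inhibitory receptor, differed by -1.11 (limma adjusted p 0.567) and Zbtb32, a transcriptional repressor, by 1.44 (0.316; 0.006 with the experiment as a block, and 0.313 with the block after quantile normalization). Of 8 genes of resting follicular cells 4 were lower on Ackr4ko in both experiments and 0 higher (18.1% and 34.4% of all genes), with sums of 83127 to 92400 and 87893 to 91784. S1pr1, the receptor for exit into blood, differed by -0.89 (limma adjusted p 0.975). The part of subset or state in the Siglecg, Pirb and Pecam1 values was not tested.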

How the data were processed

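Total RNA of the 4 cultures (50 ng, Cy3) was hybridised to Agilent 1-colour arrays on 1 slide scanned on 1 date, so neither could serve as a batch. Per the file headers, the deposited spot intensities come from Agilent Feature Extraction (version 10.7.3.1, also in the submitters' processing notes), and probe positions are on mm9. The authors' deposited value table holds normalized intensity, made in a way not given in the sources used here; it served as an alternative. Control and outlier spots were left out, 0 spots being saturated, and the log2 processed signal of each probe was averaged over its spots, scaled to the array's 75th percentile and raised by 9.872, the common log2 value of that percentile. Probes with at least 50% of spots well above background on at least 2 arrays were fitted by lmFit and eBayes of limma 3.58.1 under R 4.3.3, two-sided, with an adjusted p under 0.05 as threshold, without a block and, as an alternative, with the experiment as a block. The fit was tested on simulated data. Replicate numbers are the experiments the series describes, so they pair the arrays; array deviations within an experiment had a correlation of 0.421. Where the labels do not say that samples were separate animals, p-values measure only the spread between these samples. Lists are read from each gene's brightest tested probe; sums are of linear signals and leave out probes that share 20 bases with another gene's probe. Of each list the called genes, or else the 2 with the smallest p, are named with values. Lists of T, NK, plasma, dendritic, mast cell and endothelial genes are given mainly as counts and sums. Of the genes so chosen, 1 is left out here. The members and lists were chosen with earlier results of these data known.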

Additional observations from a re-analysis of the deposited data

Results flagged for a closer look

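For 7 probes the difference between genotypes had opposite signs in the 2 experiments, which were not compared by a test, since each experiment has 1 array per genotype. As the difference in experiment 2 minus that in experiment 1, on the log2 scale, the values were -1.87 for Lair1 A_55_P1991214 and -1.10 for Cd22 A_55_P2016004, where Ackr4ko was higher in experiment 1, and -0.53 for Fcrl1 A_51_P349213, with the same order. They were 1.38 for Lilrb4 A_55_P1957459, 0.52 and 0.56 for Cd72 A_55_P1961270 and A_55_P2180415, and 0.73 for Pirb A_55_P2053398, where Ackr4ko was lower in experiment 1. Of all tested probes 47.6% had opposite signs, against 7 of these 14.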

How the results depend on the processing

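In each of the 14 alternative settings, 0 of the tested receptor probes were called. Over all tested probes the count of 48 (36 higher, 12 lower on Ackr4ko) became 1 after quantile normalization, 113 with the median as scale, 151 with normexp, 0 with no filter on dim probes (limma; 366 at an unadjusted p under 0.05), 5 with outlier spots kept (2 higher, 3 lower), 31 with 1 probe per gene, 1 in the authors' value table, 583 with the experiment as a replicate block and 3 with the block after quantile normalization, a setting added after the data were seen. Leaving out 1 array gave 0 to 122, where the lone array is assumed to vary like the others. The 4 lists of other inhibitory receptors, effectors, ligands and activating receptors had 0 calls, but 1 with the median scale, 2 with normexp, 1 over probes detected on each array, and 3 with the block. The 3 with the block were Siglecf, Tyrobp and Tigit. Of these Tigit passed the filter through the Ackr4ko arrays alone, so its p supports no call.

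The receptors' median difference of -0.17 was -0.24 after quantile normalization, with or without the block, -0.22 with outlier spots kept, 0.30 in the value table and -0.42 to -0.029 without 1 array. In experiment 1 it was -0.19 after quantile normalization and 0.18 in the value table, and in experiment 2 -0.58, -0.50 with outlier spots kept, and 0.66 in the value table. Pirb A_55_P2053398 was -0.058 after quantile normalization, with or without the block.

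The value table turned these differences round, as its columns match the other genotype's arrays: Fcgr2b 0.35, Siglecg 0.75 and 0.98, Fcrl1 0.28, Lilrb4 0.69, Cd72 0.28 on both probes, Lair1 0.31, Pecam1 1.15, Pirb A_55_P2097279 0.89, Cd22 A_55_P2163795 -0.11, Siglecf 2.06, Tigit -1.49, Dok1 -0.49, Cblb -0.40, Casd1 0.62, Cd38 0.56, Tyrobp -1.90, Pira2 0.89, Mpeg1 0.93, Cd68 -0.43, Zbtb32 -1.28, Cd5 1.19 and S1pr1 0.98. Leaving out 1 array turned the sign of 9 of the 14 receptor probes at least once, over these ranges: Cd22 A_55_P2016004 -0.43 to 0.59, Siglecg A_51_P305052 -1.31 to 0.024, Fcrl1 -0.42 to 0.11, Fcrl5 -0.10 to 0.28, Lilrb4 -2.34 to 1.26, Lair1 -0.71 to 0.33, Cd72 -0.33 to 0.17 and -0.36 to 0.20, and Pirb A_55_P2053398 -0.26 to 0.34. The dim probes of Cd22, Lilrb4, Pirb, Fcrl5 and Lair1 are limited by signal over background. The block leaves 1 residual degree of freedom per probe.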

Other observations

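Lists of other cell types gave these values. Of 10 dendritic cell genes 4 were tested, 3 of them higher on Ackr4ko in both experiments. Their summed signal was 8750 to 11189 on the Ackr4ko and 4636 to 4750 on the WT arrays. Most of it came from Flt3, which read 13.40 and 12.98 on the Ackr4ko and 12.11 and 12.07 on the WT arrays. Itgax, Xcr1, Clec9a, Clec10a and Cd209a were above background on no array. Limma called 0 of the 4 (0.232% of all genes; 3 at an unadjusted p under 0.05). Batf3, the gene with the smallest p, read below background on the WT arrays (2.83 and 4.55). It passed the filter through the Ackr4ko arrays alone, so its p supports no call, and each count of 3 includes it. Flt3 and Zbtb46, the other genes under 0.05, were above background on all 4 arrays. Zbtb46 read 7.89 and 8.68 on the Ackr4ko and 7.23 and 7.27 on the WT arrays. The limma adjusted p was 0.553 for Flt3 and 0.738 for Zbtb46, so neither was called. Of 10 T cell genes 7 were tested, 1 higher and 1 lower in both experiments, with sums of 3276 to 4814 and 3518 to 4326. Of 8 NK cell genes 2 were tested, Nkg7 and Prf1, which gave most of the sums of 2485 to 6188 and 3048 to 3096. Ncr1 and Klrb1c were above background on no array. Of 11 granulocyte and mast cell genes 3 were tested, with sums of 610 to 645 and 681 to 762 over 9 genes. S100a8, S100a9, Mpo, Cpa3 and Ms4a2 were above background on no array. The 3 tested genes, Ly6g, Elane and Csf3r, were above background on all 4 arrays. Ly6g read 9.17 and 9.26 on the Ackr4ko and 8.43 and 8.49 on the WT arrays. Elane and Csf3r had opposite signs in the 2 experiments. The Csf3r reading, a log2 signal of 15.81 or more on each array, is not in these sums. Of 6 plasma cell genes on the array 5 were tested, 2 higher in both experiments, with sums of 23337 to 26406 and 20606 to 23881. In these T, NK, granulocyte and plasma cell lists limma called 0 genes, with 0 at an unadjusted p under 0.05.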
